A study of Mus musculus with 15 samples.

Results

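The genes described here encode the machinery of the chemical synapse: proteins of the synaptic vesicle, of its fusion with the membrane and of the presynaptic active zone, together with the scaffold and calcium/calmodulin proteins of the postsynaptic density. They were taken by name from a list of 37 genes, and every array probe whose accession resolved to one of these names was looked up. A probe was found for 34 of the 37 genes (65 probes in all), and all 34 entered the tests, as part of 22872 genes tested. Syt5, Sv2c and Nptxr had no matched probe. The probes of 33 genes were well above background on all 15 arrays. The exception was Syt2, which passed on 10 arrays (2 dflox, 3 GREmx1-cre, 3 MREmx1-cre and 2 GRMREmx1-cre).

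At a synapse, vesicles filled with transmitter dock at the active zone, where Bassoon, Piccolo and RIM proteins hold them near calcium channels. The SNARE proteins then fuse vesicle and plasma membrane when a synaptotagmin binds calcium, while complexin holds the assembled SNARE complex ready. Across the cleft, PSD-95 family and Shank scaffolds anchor glutamate receptors, and the calcium/calmodulin-dependent kinase CaMKII is a central enzyme of long-term potentiation in the hippocampus.

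RNA came from the whole hippocampus of both hemispheres of male C57BL/6 mice about 2.5 months old, and was hybridised to 15 single-colour arrays. The 4 control arrays (dflox) held mice with floxed alleles of both the glucocorticoid receptor gene (GR, Nr3c1) and the mineralocorticoid receptor gene (MR, Nr3c2) and no Cre. The knockouts carried Emx1-Cre, a driver active in the excitatory neuron lineage and glia of the forebrain and not in interneurons or microglia. They were GREmx1-cre (floxed GR, 4 arrays), MREmx1-cre (floxed MR, 4 arrays) and GRMREmx1-cre (both floxed, 3 arrays). As the design reads, only GRMREmx1-cre differs from dflox by Cre alone. The single knockouts also lack 1 of the floxed alleles that dflox carries. No group controls for Cre by itself. The labels do not say whether each array is a separate animal, so that p-values measure only the spread between these arrays.

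Each genotype may have been hybridised on a slide of its own, so an effect of the slide and one of the genotype cannot be told apart here. Levels are log2 intensities relative to each array's 75th percentile, which lay between 821 and 1027 intensity units, with 28092 to 30215 probes well above background and 0 saturated spots per array. The number of arrays limits the precision. The Nr3c1 level was 1.49 to 1.79 on dflox arrays, -0.66 to -0.53 on GREmx1-cre, 2.08 to 2.28 on MREmx1-cre and -0.078 to 0.094 on GRMREmx1-cre arrays. Nr3c2 was dim, at -3.65 to -3.36, -3.15 to -3.04, -3.76 to -3.46 and -4.01 to -3.71 in the same order. The Nr3c2 level of MREmx1-cre overlapped that of dflox, with a log2 difference of -0.11 ± 0.086 (SE; limma adjusted p = 0.48). Against dflox, Nr3c2 was higher in GREmx1-cre (0.42, limma adjusted p = 0.021) and lower in GRMREmx1-cre (-0.31, 0.039). These calls were lost with 3 and 6 of the 15 arrays left out in turn, and both were lost with the mean of all probes of a gene. Against GREmx1-cre it was lower in MREmx1-cre (-0.54, 0.0020) and GRMREmx1-cre (-0.73, 0.00038). Nr3c1 was higher in MREmx1-cre than in dflox (0.54, 0.0017). The files do not say whether the Nr3c2 probe lies in the deleted exons, so it does not check the MREmx1-cre label, and loss of MR is taken below from the labels. No marker of a hippocampal cell type was below background throughout a group. On GREmx1-cre replicate 1, thalamus and habenula markers averaged 0.49 on a log2 scale centred over all arrays, against -0.20 to -0.14 on the other arrays of the group. Relative to the dflox mean, the sum of their linear levels was 0.701 to 1.04 on the GREmx1-cre arrays and 0.805 to 1.45 on the dflox arrays. No GREmx1-cre array thus exceeded the dflox range. These ranges are by group, so they do not show where replicate 1 lay among the arrays of its own group. On MREmx1-cre replicate 2 choroid plexus markers averaged -4.33 against 0.12 to 1.09. Counts that involve these arrays are given below with and without them.

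**Figure D1:**
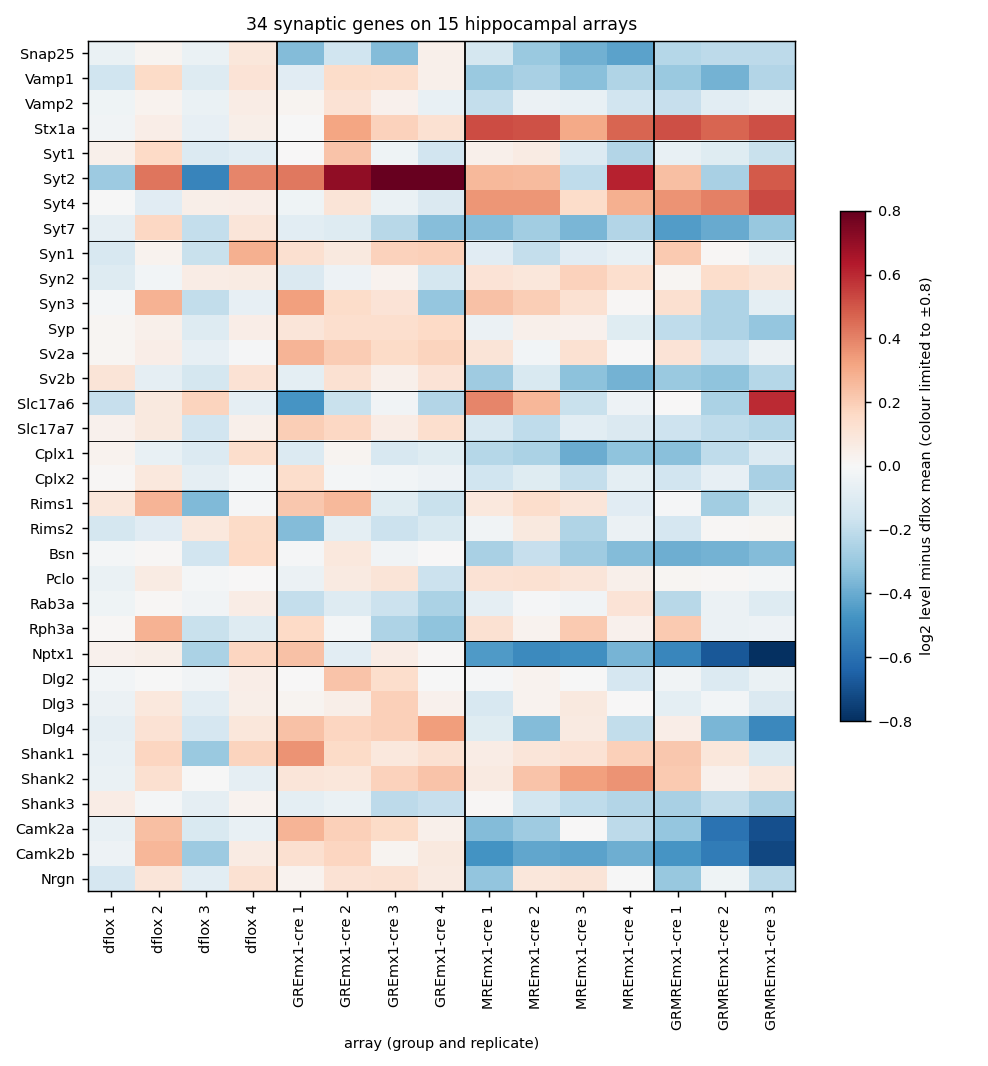
Log2 level of each of the 34 genes (rows, grouped by role) on each of the 15 arrays (columns, grouped by genotype), minus the dflox mean of that gene. Colour runs from blue (lower) to red (higher) and is limited to ±0.8; Stx1a and Syt4 are red and Nptx1, Camk2b and Bsn are blue across the MREmx1-cre and GRMREmx1-cre arrays.

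The comparison of MREmx1-cre with dflox asks what loss of MR does where GR is present. Here 2 of the 34 genes rose, Stx1a and Syt4, and 8 fell: Snap25, Vamp1, Syt7, Sv2b, Cplx1, Bsn, Nptx1 and Camk2b. A gene is called here at an adjusted p (limma, Benjamini-Hochberg over all genes tested) below 0.05. These 10 genes are 29.4% of the 34, where 6.8% of all genes tested were called (4.21% higher and 2.6% lower). The median log2 difference was -0.045 over the 34 genes and 0.036 over all genes. Called changes were small, between -0.46 and 0.45, and the pooled spread within groups was also small, with a median SD of 0.105 over the 34 genes against 0.134 over all genes tested. Arrays did not overlap for 3 genes above and 8 below dflox, where 9.38% and 4.48% of all genes did so. In whole tissue, fewer cells of a type and less RNA per cell cannot be told apart.

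This count rested on few arrays. It was 4 without dflox replicate 1, 5 without dflox replicate 2, 3 without dflox replicate 4, 5 without MREmx1-cre replicate 2, 4 without MREmx1-cre replicate 3 and 4 without MREmx1-cre replicate 4. Without GRMREmx1-cre replicate 1 or 2, which enter only through the shared spread, it was 6. With GREmx1-cre replicate 1 and MREmx1-cre replicate 2 both left out it was 4, and with normexp background correction it was 0. Of the 10 calls, only that of Stx1a passed with each of the 15 arrays left out in turn.

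Loss of MR where GR is absent is read from GRMREmx1-cre against GREmx1-cre, which shares no array with the former comparison. Again 2 genes rose and 10 fell (35.3%), beside 16.1% of all genes tested (9.23% higher and 6.91% lower). The genes that rose were again Stx1a and Syt4, and those that fell were Vamp1, Syp, Sv2a, Sv2b, Slc17a7, Bsn, Nptx1, Dlg4, Camk2a and Camk2b. The median was -0.14 over the 34 genes and 0.024 over all genes. With each array left out in turn, 8 of the 12 calls passed throughout: Stx1a, Syt4, Syp, Slc17a7, Bsn, Nptx1, Camk2a and Camk2b. Without GREmx1-cre replicate 1 the count was 11. Arrays did not overlap for 2 genes above and 14 below, where 17.1% and 12.7% of all genes did so.

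Called the same way in both comparisons of MR loss were Stx1a and Syt4, which rose, and Vamp1, Sv2b, Bsn, Nptx1 and Camk2b, which fell. The 5 lower genes are 62.5% of those that fell with GR present and 50% of those that fell with GR absent. Over all genes tested, those lower in both are 65.3% and 24.6% of the genes lower in the same comparisons, so the first share is near that of all genes. Of all genes tested, 2.01% were called higher and 1.7% lower in both. The other calls differed: Snap25, Syt7 and Cplx1 passed only with GR present, and Syp, Sv2a, Slc17a7, Dlg4 and Camk2a only with GR absent. The test of the difference between the backgrounds, the interaction, called 1 of the 34 genes, Syp, beside 1.29% of all genes (0.512% above 0 and 0.778% below), so for the other 7 genes a difference between backgrounds was not shown. With GR present MR loss is read from Cre against no Cre, and with GR absent from Cre against Cre. An effect of Cre itself therefore does not cancel in the interaction.

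**Figure D2:**
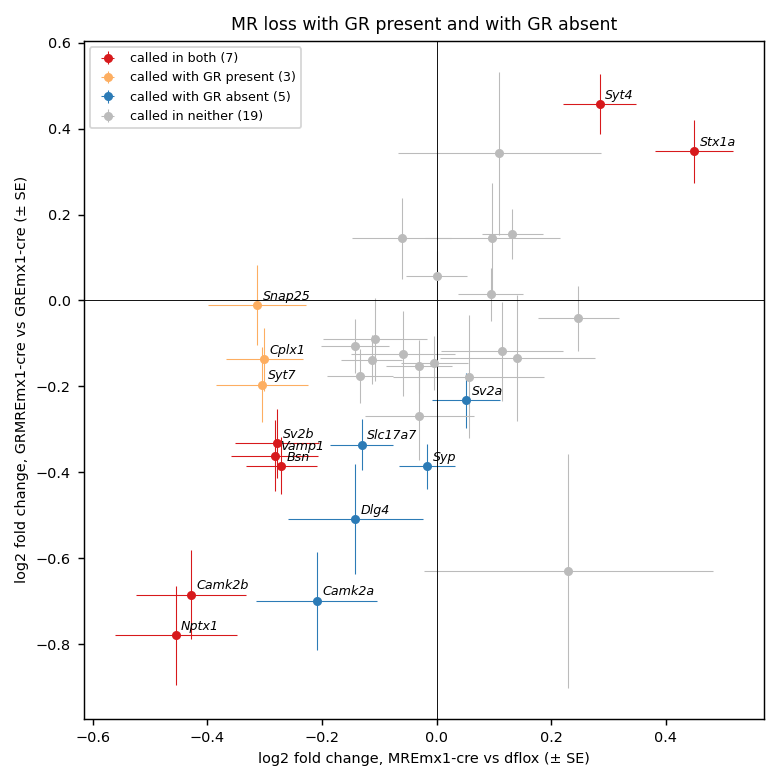
Log2 fold change of each of the 34 genes with loss of MR where GR is present (x axis, MREmx1-cre against dflox) and where GR is absent (y axis, GRMREmx1-cre against GREmx1-cre); bars are SE, and colours mark where a gene was called. The 7 genes called in both lie in the upper right (Stx1a, Syt4) and the lower left (Vamp1, Sv2b, Bsn, Nptx1, Camk2b).

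For 24 of the 34 genes RefSeq (GRCm38.p6) gave promoter windows, 39 in all, of 250 bases before to 50 after a transcription start. The stretches before the start are printed for 1 gene that rose and 3 that fell in both comparisons, so that the DNA at genes that moved with MR loss can be read. Printed were those with exactly 1 window that do not lie on the chromosome of Nr3c1. Syt4, Sv2b and Nptx1 were also called in both and are not printed, so the 4 stretches do not stand for all such genes. Capitals mark the GC box GGGCGG on either strand, a motif bound by Sp1-type factors. The windows are Stx1a at chr5:135023232-135023481 (plus strand), Vamp1 at chr6:125215331-125215580 (plus), Bsn at chr9:108190384-108190633 (minus) and Camk2b at chr11:6065749-6065998 (minus), each written along the strand of its gene.
Stx1a: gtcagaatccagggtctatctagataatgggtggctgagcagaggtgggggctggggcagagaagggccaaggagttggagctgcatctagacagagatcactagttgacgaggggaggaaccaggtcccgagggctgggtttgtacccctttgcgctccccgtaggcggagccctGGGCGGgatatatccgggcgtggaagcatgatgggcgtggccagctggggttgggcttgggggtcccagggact
Vamp1: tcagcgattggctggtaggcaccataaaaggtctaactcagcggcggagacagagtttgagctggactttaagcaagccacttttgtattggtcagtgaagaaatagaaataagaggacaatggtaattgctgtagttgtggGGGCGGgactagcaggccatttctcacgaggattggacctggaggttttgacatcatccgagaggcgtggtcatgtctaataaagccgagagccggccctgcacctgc
Bsn: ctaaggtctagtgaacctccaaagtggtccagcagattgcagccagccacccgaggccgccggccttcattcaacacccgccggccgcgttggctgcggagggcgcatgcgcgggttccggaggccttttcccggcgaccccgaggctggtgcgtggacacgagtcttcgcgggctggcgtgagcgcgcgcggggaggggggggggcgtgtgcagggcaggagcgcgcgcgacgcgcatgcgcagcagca
Camk2b: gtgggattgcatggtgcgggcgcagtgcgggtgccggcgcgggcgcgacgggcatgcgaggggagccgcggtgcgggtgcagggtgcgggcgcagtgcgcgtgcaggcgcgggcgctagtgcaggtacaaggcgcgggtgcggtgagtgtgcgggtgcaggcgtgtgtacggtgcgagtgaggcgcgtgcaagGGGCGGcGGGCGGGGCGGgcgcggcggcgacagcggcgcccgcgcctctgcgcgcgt

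In these stretches Stx1a and Vamp1 hold 1 GC box each, Camk2b holds 3, of which 2 overlap, and Bsn holds 0. The full windows were 66.33% G and C for Stx1a, 51.67% for Vamp1, 72.33% for Bsn and 77.33% for Camk2b. Over all 39 windows of these synaptic genes 53.85% hold a GC box, where 35.66% of 32851 promoters do, and the median G and C content is 59.33% against 52.67%. The half-site TGTTCT, the letters that GR and MR contact on DNA, occurs on either strand in 15.38% of the synaptic windows (those of Dlg3, Rph3a, Sv2b, Syp and Syt2) and in 18.97% of all promoters. The palindrome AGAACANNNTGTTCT occurs in 0 of the 39 windows and in 3 of all promoters. A match describes the letters of the window only.

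Among the SNARE proteins, the syntaxin of the presynaptic plasma membrane rose and a vesicle SNARE fell. Stx1a (syntaxin 1A) lay at 1.51, 1.59, 1.47 and 1.59 on the dflox arrays and at 1.53, 1.85, 1.73 and 1.66 on the GREmx1-cre arrays. It lay at 2.06, 2.05, 1.84 and 2.0 with MREmx1-cre and at 2.06, 2.01 and 2.06 with GRMREmx1-cre. Every array of both MR-deficient groups was above every dflox array. The log2 difference from dflox was 0.45 ± 0.069 (SE) for MREmx1-cre, 1.37-fold (limma adjusted p = 0.00224), and 0.50 ± 0.074 for GRMREmx1-cre, 1.41-fold (adjusted p = 0.000797). GRMREmx1-cre exceeded GREmx1-cre by 0.35 (adjusted p = 0.0076). None of these 3 calls was lost with any array left out, and all 3 were lost with normexp correction.

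Vamp1, a synaptobrevin of the vesicle membrane, read 2.09, 2.40, 2.14 and 2.36 in dflox and 2.15, 2.39, 2.39 and 2.29 in GREmx1-cre. The MREmx1-cre levels were 1.95, 1.99, 1.91 and 2.0, and those of GRMREmx1-cre 1.95, 1.87 and 2.01. The MR-deficient arrays all lay below the dflox and GREmx1-cre arrays. The difference was -0.28 ± 0.077 in MREmx1-cre (adjusted p = 0.0445), -0.30 ± 0.083 in GRMREmx1-cre (adjusted p = 0.026) and -0.36 ± 0.083 for GRMREmx1-cre against GREmx1-cre (adjusted p = 0.011). The first was lost with 12 of the 15 arrays left out in turn (adjusted p up to 0.114) and the second with 4, dflox replicates 2 or 4 or GRMREmx1-cre replicates 1 or 2 (up to 0.111). The last was lost without GRMREmx1-cre replicate 2 alone (adjusted p = 0.0555).

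Snap25, the other plasma membrane SNARE, lay at 2.19, 2.27, 2.20 and 2.34 in dflox, and at 2.11, 1.95, 1.87 and 1.82 in MREmx1-cre. Its GREmx1-cre levels were spread, at 1.90, 2.09, 1.91 and 2.29, and its GRMREmx1-cre levels were 2.02, 2.04 and 2.04. The MREmx1-cre and GRMREmx1-cre arrays were all below dflox, while GREmx1-cre overlapped it. The fall in MREmx1-cre, -0.31 ± 0.086 (adjusted p = 0.0475), had the highest adjusted p of the 10 calls and was lost with 11 of the 15 arrays left out. In GRMREmx1-cre the difference was -0.21 (adjusted p = 0.142). Vamp2, the main synaptobrevin of the forebrain, did not pass in any comparison, with -0.11 in both MR-deficient groups against dflox.

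The synaptotagmins moved in both directions. Syt4, a vesicle protein whose calcium binding differs from that of Syt1, lay at 1.58, 1.5, 1.63 and 1.64 in dflox and 1.55, 1.69, 1.53 and 1.47 in GREmx1-cre. It lay at 1.94, 1.94, 1.73 and 1.87 in MREmx1-cre and 1.94, 1.99 and 2.12 in GRMREmx1-cre. The MR-deficient arrays were all above the others. The rise was 0.28 ± 0.064 in MREmx1-cre (limma adjusted p = 0.0202), 0.43 ± 0.070 in GRMREmx1-cre (adjusted p = 0.00136) and 0.46 ± 0.070 from GREmx1-cre to GRMREmx1-cre (adjusted p = 0.00111). The first was lost without dflox replicate 1, dflox replicate 2 or MREmx1-cre replicate 2 (highest adjusted p = 0.0574). A second Syt4 probe gave 0.16, 0.23 and 0.40 in the same order. With the mean of both probes the MREmx1-cre call was lost (0.22, adjusted p = 0.103). Syt4 lies on the chromosome of Nr3c1, with 116 tested genes between them.

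Syt7, a slow, high-affinity calcium sensor, fell. Its levels were 4.59, 4.83, 4.47 and 4.76 in dflox and 4.58, 4.56, 4.44 and 4.32 in GREmx1-cre. They were 4.33, 4.38, 4.30 and 4.43 in MREmx1-cre and 4.22, 4.26 and 4.36 in GRMREmx1-cre. All MR-deficient arrays lay below dflox, while GREmx1-cre overlapped both. The difference from dflox was -0.30 ± 0.081 in MREmx1-cre (adjusted p = 0.0408, lost with 10 of 15 arrays left out) and -0.38 ± 0.087 in GRMREmx1-cre (adjusted p = 0.00977, kept with each array left out). GRMREmx1-cre against GREmx1-cre gave -0.20 (adjusted p = 0.15). The other 3 Syt7 probes gave -0.37 to -0.064 in MREmx1-cre, and with the mean of all probes that call was lost (-0.21, adjusted p = 0.145). Syt1, the fast calcium sensor, stayed between 5.07 and 5.53 on all arrays and did not pass. Syt2, the dim gene, was 0.79 ± 0.25 higher in GREmx1-cre than in dflox (adjusted p = 0.114), with overlapping arrays.

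Of the synapsins and vesicle membrane proteins, Sv2b, a vesicle glycoprotein, fell with both losses of MR. It lay at 3.22, 3.04, 2.97 and 3.23 in dflox and 3.04, 3.24, 3.16 and 3.22 in GREmx1-cre. It lay at 2.83, 2.99, 2.79 and 2.74 in MREmx1-cre and 2.82, 2.79 and 2.89 in GRMREmx1-cre. Only 1 MREmx1-cre array reached into the dflox range, and none of GRMREmx1-cre did. The differences were -0.28 ± 0.074 (MREmx1-cre, limma adjusted p = 0.0408, lost with 10 of 15 arrays left out), -0.28 ± 0.080 (GRMREmx1-cre, adjusted p = 0.0293) and -0.33 ± 0.080 (GRMREmx1-cre against GREmx1-cre, adjusted p = 0.0139, lost without GRMREmx1-cre replicate 2). A second probe gave -0.39, -0.41 and -0.31.

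Syp (synaptophysin, the abundant vesicle membrane protein) was the 1 gene of the 34 called in the interaction, a call that several settings end. Its levels were 4.36, 4.39, 4.24 and 4.40 in dflox and 4.44, 4.48, 4.48 and 4.51 in GREmx1-cre. They were 4.30, 4.39, 4.38 and 4.25 in MREmx1-cre and 4.14, 4.10 and 4.04 in GRMREmx1-cre. The GRMREmx1-cre arrays were below all others and the GREmx1-cre arrays above all others, while MREmx1-cre overlapped dflox. GRMREmx1-cre differed from dflox by -0.26 ± 0.053 (adjusted p = 0.00574), from GREmx1-cre by -0.39 ± 0.053 (adjusted p = 0.000562) and from MREmx1-cre by -0.24 ± 0.053 (adjusted p = 0.0297). MREmx1-cre against dflox gave -0.016. The interaction was -0.37 ± 0.072 (adjusted p = 0.0311). Over arrays left out it ranged from -0.40 to -0.34, with adjusted p up to 0.0835. It was lost without dflox replicates 1 or 3, GREmx1-cre replicates 2, 3 or 4, MREmx1-cre replicates 2 or 3, or GRMREmx1-cre replicates 2 or 3. With the replicate block the adjusted p was 0.0513 (0.0506 for GRMREmx1-cre against MREmx1-cre), with quantile normalization 0.0534 (0.0652) and with median scaling 0.111 (0.0574).

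Sv2a, the widespread member of the SV2 family, lay at 2.87 to 2.99 in dflox, 3.09 to 3.21 in GREmx1-cre, 2.92 to 3.06 in MREmx1-cre and 2.78 to 3.04 in GRMREmx1-cre. GREmx1-cre was above all arrays of dflox, by 0.20 ± 0.059 (adjusted p = 0.0846), and GRMREmx1-cre was below GREmx1-cre by -0.23 ± 0.064 (adjusted p = 0.0262). The latter was lost without GREmx1-cre replicate 1, one of the arrays that stand apart, and without GREmx1-cre replicate 2 or GRMREmx1-cre replicates 2 or 3 (highest adjusted p = 0.128). A second Sv2a probe gave -0.40 there. Syn2, a synapsin, which tethers vesicles, was higher in MREmx1-cre (6.28 to 6.37) than in GREmx1-cre (6.04 to 6.21), by 0.20 ± 0.053 (adjusted p = 0.0335). That call was lost with 7 of 15 arrays left out (adjusted p up to 0.0938), any one MREmx1-cre array or GREmx1-cre replicates 1, 2 or 4, and with the mean of all probes, median scaling or no filter (0.0605 to 0.067). Syn1 and Syn3 passed in no comparison.

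Slc17a7, the vesicular glutamate transporter VGLUT1 of hippocampal excitatory terminals, fell in the double knockout. It lay at 2.31, 2.35, 2.12 and 2.31 in dflox and 2.47, 2.44, 2.33 and 2.41 in GREmx1-cre. It lay at 2.14, 2.07, 2.19 and 2.16 in MREmx1-cre and 2.11, 2.07 and 2.04 in GRMREmx1-cre. GRMREmx1-cre was just below the lowest dflox array, and MREmx1-cre overlapped dflox. The difference was -0.20 ± 0.059 from dflox (limma adjusted p = 0.0382, lost with 6 arrays left out) and -0.34 ± 0.059 from GREmx1-cre (adjusted p = 0.00252, kept with each array left out). MREmx1-cre differed from dflox by -0.13 (adjusted p = 0.18). Slc17a6, the transporter VGLUT2 of subcortical terminals, passed in no comparison. It was lowest, at -1.20, on the GREmx1-cre array with a high mean log2 level of thalamus and habenula markers.

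Of the complexins, Cplx1 was at 4.90, 4.81, 4.76 and 5.01 in dflox and at 4.64, 4.62, 4.47 and 4.55 in MREmx1-cre. It was at 4.76, 4.89, 4.75 and 4.78 in GREmx1-cre and at 4.54, 4.67 and 4.76 in GRMREmx1-cre. The MREmx1-cre arrays were below all dflox arrays, and GRMREmx1-cre met the lowest of them. The fall in MREmx1-cre was -0.30 ± 0.067 (adjusted p = 0.0191, lost without dflox replicates 1 or 4 or MREmx1-cre replicates 3 or 4), and GRMREmx1-cre gave -0.21 (adjusted p = 0.064). Cplx2 differed by -0.13 and -0.16 in the same groups and did not pass.

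At the active zone the fall was in 1 of 6 genes, Bsn. Bassoon is a giant scaffold of the release site, and its levels were 3.48, 3.50, 3.33 and 3.65 in dflox and 3.48, 3.58, 3.46 and 3.49 in GREmx1-cre. They were 3.23, 3.30, 3.20 and 3.14 in MREmx1-cre and 3.10, 3.11 and 3.14 in GRMREmx1-cre. Every MR-deficient array was below every other array. The difference was -0.27 ± 0.062 in MREmx1-cre (limma adjusted p = 0.0204, lost without MREmx1-cre replicate 4), -0.37 ± 0.066 in GRMREmx1-cre (adjusted p = 0.00247) and -0.39 ± 0.066 between GRMREmx1-cre and GREmx1-cre (adjusted p = 0.00226). A second probe gave -0.18, -0.17 and -0.39. Piccolo (Pclo), its relative at the same site, gave 0.094 and 0.0040 against dflox and did not pass, nor did Rims1, Rims2 or Rph3a. Rab3a, the vesicle GTPase that binds RIM, was below dflox on all GREmx1-cre arrays, at 6.11 to 6.26 against 6.33 to 6.42, by -0.18 ± 0.054 (adjusted p = 0.0912). Rab3a lies on the chromosome of Nr3c2, 65 tested genes away.

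The largest changes among the 34 genes in GRMREmx1-cre against dflox were those of Nptx1 and the CaMKII subunits. Nptx1, a secreted pentraxin that clusters AMPA receptors at excitatory synapses, lay at -0.94, -0.93, -1.23 and -0.80 in dflox and -0.74, -1.06, -0.91 and -0.97 in GREmx1-cre. It lay at -1.42, -1.48, -1.46 and -1.34 in MREmx1-cre and -1.50, -1.65 and -1.94 in GRMREmx1-cre. The 3 ranges were separate: dflox and GREmx1-cre together were highest, MREmx1-cre lay below them and GRMREmx1-cre lowest. The log2 difference from dflox was -0.46 ± 0.11 in MREmx1-cre, 72.9% of the dflox level (limma adjusted p = 0.0233), and -0.72 ± 0.12 in GRMREmx1-cre, 60.5% (adjusted p = 0.00122). GRMREmx1-cre was at 58.3% of GREmx1-cre (-0.78 ± 0.12, adjusted p = 0.000913). GRMREmx1-cre against MREmx1-cre gave -0.27 ± 0.12 (adjusted p = 0.253). The MREmx1-cre call was lost without dflox replicates 1, 2 or 4 or MREmx1-cre replicates 2 or 3 (highest adjusted p = 0.0667). With normexp correction these calls of Nptx1, and those of Syt4, were lost.

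Camk2b, the CaMKII subunit that binds actin, lay at 5.57, 5.88, 5.32 and 5.68 in dflox and 5.74, 5.78, 5.63 and 5.69 in GREmx1-cre. It lay at 5.13, 5.20, 5.18 and 5.22 in MREmx1-cre and 5.14, 5.06 and 4.89 in GRMREmx1-cre. All MR-deficient arrays were below all others. The difference was -0.43 ± 0.096 in MREmx1-cre (74.3% of dflox, adjusted p = 0.0186), -0.59 ± 0.10 in GRMREmx1-cre (66.6%, adjusted p = 0.0023) and -0.69 ± 0.10 for GRMREmx1-cre against GREmx1-cre (62.2%, adjusted p = 0.00104). The first was lost without dflox replicate 4 (adjusted p = 0.0525).

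Camk2a, the subunit that marks mature excitatory neurons, was at 5.82, 6.12, 5.76 and 5.82 in dflox and 6.15, 6.07, 6.04 and 5.92 in GREmx1-cre. It was at 5.53, 5.60, 5.89 and 5.67 in MREmx1-cre and 5.57, 5.29 and 5.18 in GRMREmx1-cre. GRMREmx1-cre was below all dflox arrays and MREmx1-cre overlapped them. GRMREmx1-cre differed by -0.54 ± 0.11 from dflox (69% of it, limma adjusted p = 0.00688) and by -0.70 ± 0.11 from GREmx1-cre (adjusted p = 0.00162). MREmx1-cre against dflox gave -0.21 (adjusted p = 0.274). The second Camk2a probe gave 0.067 (unadjusted p = 0.697) against dflox and -0.081 against GREmx1-cre, so its probes disagree, and with the mean of both probes the call against dflox was lost. Camk2a also lies near Nr3c1, with 78 tested genes between them. Nrgn (neurogranin, which binds calmodulin at low calcium) did not pass, with -0.18 in GRMREmx1-cre against dflox.

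**Figure D3:**
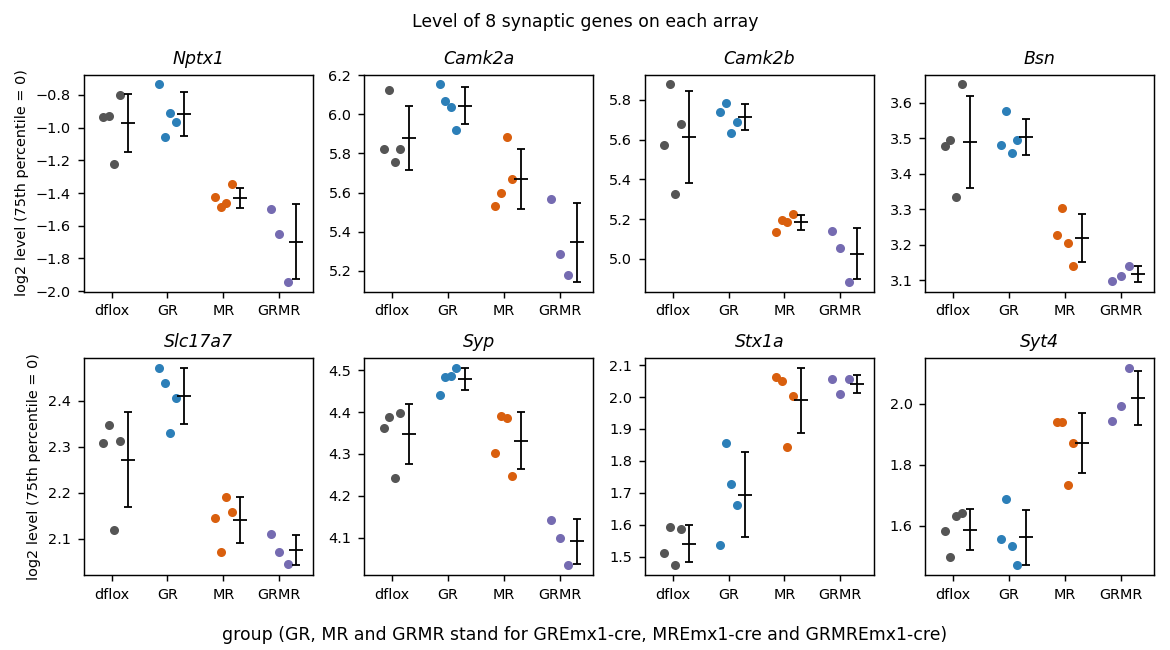
Log2 level on each array (points) for 8 synaptic genes in the 4 groups, with the group mean and SD beside them (black); 0 is the array's 75th percentile, and each panel has its own y axis. Nptx1, Camk2b and Bsn are lower and Stx1a and Syt4 higher on the MREmx1-cre and GRMREmx1-cre arrays than on all dflox arrays, and Syp is lowest on the GRMREmx1-cre arrays.

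Of the 6 postsynaptic scaffolds, 0 passed in MREmx1-cre against dflox, Shank3 fell in GRMREmx1-cre against dflox and Dlg4 fell in GRMREmx1-cre against GREmx1-cre. Shank3, a master scaffold of the postsynaptic density, lay at 2.31, 2.23, 2.18 and 2.28 in dflox, 2.17, 2.20, 2.04 and 2.06 in GREmx1-cre, 2.26, 2.11, 2.05 and 2.02 in MREmx1-cre and 1.99, 2.05 and 1.99 in GRMREmx1-cre. The GRMREmx1-cre arrays were below dflox, and the single knockouts overlapped it. The fall in GRMREmx1-cre was -0.24 ± 0.064 (limma adjusted p = 0.0234), lost without dflox replicates 1 or 4 or GRMREmx1-cre replicates 1 or 3 (highest adjusted p = 0.0743). Dlg4 (PSD-95) lay at -0.084 to 0.17 in dflox, 0.22 to 0.39 in GREmx1-cre, -0.30 to 0.12 in MREmx1-cre and -0.46 to 0.11 in GRMREmx1-cre. GRMREmx1-cre was below GREmx1-cre by -0.51 ± 0.13 (70.3%, adjusted p = 0.0171), lost without GRMREmx1-cre replicates 2 or 3 (highest adjusted p = 0.0853), and a second probe gave -0.38. Dlg2, Dlg3, Shank1 and Shank2 passed in no comparison.

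GRMREmx1-cre against dflox, the comparison of loss of both receptors, called 2 genes higher and 10 lower (35.3% of 34), beside 16.3% of all genes tested (11.4% higher and 4.84% lower). The genes were Stx1a and Syt4, higher, and Vamp1, Syt7, Syp, Sv2b, Slc17a7, Bsn, Nptx1, Shank3, Camk2a and Camk2b, lower. The median over the 34 genes was -0.12, and over all genes 0.033. Of the 12 calls, 8 passed with each array left out in turn. Arrays did not overlap for 2 genes above and 13 below dflox, where 19.3% and 10.1% of all genes did so.

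Loss of GR where MR is present, GREmx1-cre against dflox, called 0 of the 34 genes (limma), beside 3.15% of all genes tested (2.26% higher and 0.888% lower), and 0 under each alternative run. At an unadjusted p below 0.05 there were 9 of the 34, beside 4370 of the 22872 genes tested. They were Snap25, Stx1a, Syt2, Syt7, Syp, Sv2a, Slc17a7, Rab3a and Shank3. Log2 differences ran from -0.23 to 0.79 with a median of 0.053, against 0.021 for all genes, and the lowest adjusted p was 0.0846 (Sv2a). Arrays did not overlap for 3 genes above dflox (Syp, Sv2a and Dlg4) and 1 below (Rab3a), where 7.67% and 5.01% of all genes did so. Loss of GR where MR is absent, GRMREmx1-cre against MREmx1-cre, called 1 gene lower (Syp), beside 2.98% of all genes (2.35% higher and 0.625% lower). There 3 of the 34 passed unadjusted p below 0.05 (Syp, Nptx1 and Camk2a), beside 3937 of the 22872 genes tested. Called the same way in both comparisons of GR loss were 0 of the 34 genes, beside 0.315% of all genes higher and 0.035% lower in both. The count of 1 was 0 without MREmx1-cre replicates 2 or 3 or any one GRMREmx1-cre array. MREmx1-cre against GREmx1-cre called 3 genes higher (Stx1a, Syt4 and Syn2) and 7 lower (Vamp1, Sv2b, Slc17a7, Bsn, Nptx1, Camk2a and Camk2b), beside 9.33% of all genes (4.91% higher and 4.42% lower), and 4, all lower, without GREmx1-cre replicate 1 and MREmx1-cre replicate 2 together.

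**Figure D4:**
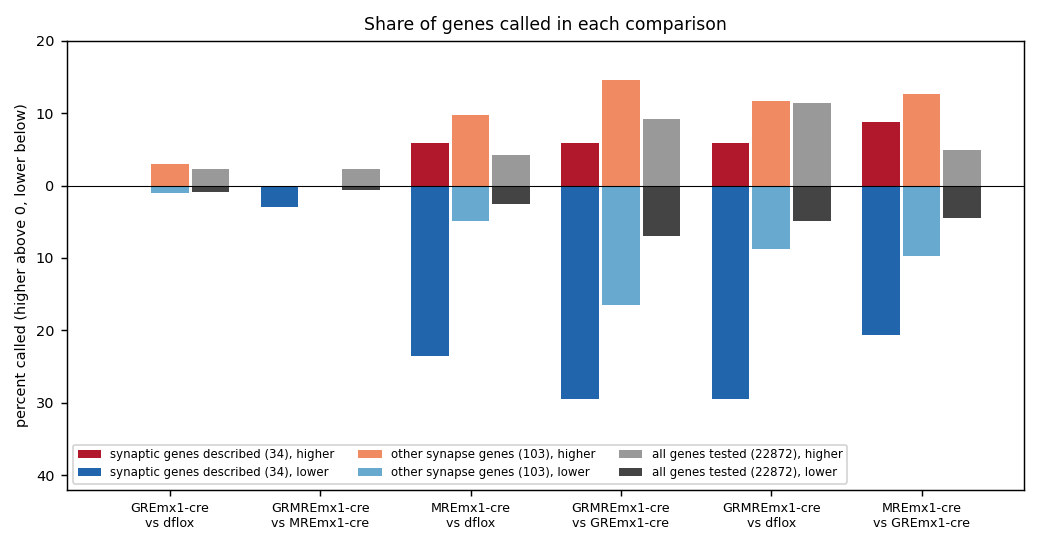
Percent of genes called higher (above 0) and lower (below 0) at an adjusted p below 0.05 for the 34 synaptic genes, 103 other synapse genes and all genes tested, in 6 comparisons (x axis). In both comparisons of MR loss more of the 34 genes were called lower (8 and 10) than higher (2 and 2), and in those of GR loss 0 and 1 were called lower; several comparisons share arrays.

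Of 108 other synapse genes, listed from textbook roles but with earlier results of these data known, 103 were tested. In MREmx1-cre against dflox 10 rose and 5 fell (14.6%, beside 6.8% of all genes), and in GRMREmx1-cre against GREmx1-cre 15 rose and 17 fell (31.1%, beside 16.1%). In GRMREmx1-cre against dflox 12 rose and 9 fell (20.4%, beside 16.3%), and in GREmx1-cre against dflox 3 rose and 1 fell (3.88%, beside 3.15%), both near the share of all genes. In the release machinery, Stx3, a syntaxin, fell to 70.4% of dflox in MREmx1-cre (-0.51 ± 0.067, limma adjusted p = 0.00091) and 68.2% in GRMREmx1-cre. Ppfia2 (liprin-alpha2, an active zone organiser) fell by 0.54 ± 0.077 in MREmx1-cre (adjusted p = 0.00156) and 0.70 ± 0.083 in GRMREmx1-cre (adjusted p = 0.000211). Doc2a, a calcium sensor of asynchronous and spontaneous release, rose by 0.63 ± 0.10 (adjusted p = 0.00292) and 0.82 ± 0.11 (adjusted p = 0.00038). Unc13c, a Munc13 priming factor, rose 2.51-fold in GRMREmx1-cre (adjusted p = 0.00117), and Rab27b, a secretory Rab, rose by 0.47 ± 0.072 in MREmx1-cre (adjusted p = 0.00219). Stx1a rose while Stx3 fell within 1 gene family.

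Behind the synaptic cleft, Homer3, a scaffold linking metabotropic glutamate receptors, fell to 53.3% of dflox in MREmx1-cre (-0.91 ± 0.12, limma adjusted p = 0.000867) and 49.2% in GRMREmx1-cre (adjusted p = 0.000268), and rose in GREmx1-cre by 0.60 ± 0.12 (adjusted p = 0.018). Kalrn, a signalling protein of dendritic spines, fell by 0.34 ± 0.084 (adjusted p = 0.0296) and 0.56 ± 0.091 (adjusted p = 0.00151), and Dlg1 (SAP97, of the PSD-95 family) rose by 0.22 ± 0.057 (adjusted p = 0.0352) and 0.30 ± 0.062 (adjusted p = 0.00634). Of 19 adhesion genes, 3 rose in MREmx1-cre (15.8%, beside 4.21% of all genes) and 4 in GRMREmx1-cre (21.1%, beside 11.4%), and 0 fell. They included Lrrtm2 (0.39 ± 0.073, adjusted p = 0.00318 in GRMREmx1-cre), Cbln2 (0.42 ± 0.11, adjusted p = 0.0257) and Lrrtm3 (0.42 ± 0.10, adjusted p = 0.0132). Dnm1, the dynamin of vesicle endocytosis, fell by 0.36 ± 0.064 in GRMREmx1-cre (adjusted p = 0.00229).

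Markers of several hippocampal cell types were lower or higher on the same arrays as the synaptic genes. The summed level of 11 of 12 pan-neuronal markers, relative to the dflox mean, was 0.946 to 1.05 in dflox, 0.95 to 1.03 in MREmx1-cre and 0.985 to 1.01 in GRMREmx1-cre. Of these 11, 1 was lower in MREmx1-cre (Nefl), and 2 were higher (Tubb3 and Map2) and 1 lower (Nefl) in GRMREmx1-cre. That of 7 of 8 CA3 pyramidal markers was 0.885 to 1.05 in dflox, 0.659 to 0.75 in MREmx1-cre and 0.66 to 0.702 in GRMREmx1-cre, with 3 and 4 genes lower and 0 higher. The 8 CA2 markers were at 0.975 to 1.03, 0.677 to 0.779 and 0.666 to 0.781, with 5 lower in each knockout. The 10 dentate granule markers were at 0.821 to 1.17, 0.691 to 0.807 and 0.668 to 0.906, with 1 higher and 4 lower, then 1 higher and 6 lower. The CA1 markers (7 of 8) were at 0.87 to 1.11, 0.959 to 1.17 and 0.98 to 1.02, with 1 higher and 1 lower, then 1 higher and 2 lower. The mean log2 level of the CA1 markers, centred over all arrays, was -0.35 to -0.29 in GRMREmx1-cre against -0.092 to 0.24 in dflox. That mean does not describe most of the 7 genes. In GRMREmx1-cre against dflox 4 of them had a log2 difference above 0, the median was 0.074 and the lowest was -3.61. The 12 GABAergic interneuron markers were at 0.981 to 1.02, 0.901 to 0.998 and 0.852 to 0.885, with 0 called in MREmx1-cre and 1 lower (Cck) in GRMREmx1-cre. This sum does not describe most of the 12 genes either. In GRMREmx1-cre against dflox 7 of them had a log2 difference above 0, and the median was 0.032. Astrocyte markers (10 of 10) were at 0.951 to 1.06, 0.973 to 1.11 and 0.879 to 0.976, with 1 higher, then 3 higher and 2 lower. Microglial markers (10 of 10) were higher, at 0.94 to 1.05, 1.16 to 1.19 and 1.21 to 1.40, with 4 and 7 genes higher and 0 lower. Thalamus and habenula markers (10 of 12) were at 0.805 to 1.45, 0.74 to 1.05 and 0.762 to 1.03. Of these 10, 2 were called higher in MREmx1-cre (20%, beside 4.21% of all genes) and 4 in GRMREmx1-cre (40%, beside 11.4%), and 0 lower. Their median log2 difference from dflox was -0.062 and 0.081. None of these markers was below background throughout a group. Their part in the changes of the synaptic genes was not tested.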

How the data were processed

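RNA of 15 hippocampal samples was read on single-colour Agilent arrays. Per the submitters' processing notes, the authors used Agilent Feature Extraction 12.0. Per the file headers, the processed signal is an intensity corrected for background by the scanner software, and flags (other values, 0 or 1) mark spots well above background, saturated and outlier spots. The deposited value table held the same intensity at all 45018 spots.

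The log2 intensities were computed from the deposited values and each array's 75th percentile over 43379 non-control spots was subtracted. Outlier spots (1281 over all arrays) were left out and spots of a probe averaged, giving 41174 probes. Probes were named by accession through a RefSeq table of GRCm38.p6: 28223 had 1 symbol, 0 several and 12951 none. A probe was kept where 3 or more arrays read it well above background, with the probe of highest mean for each gene (22872 genes). The group means of the 15 arrays were fitted together with lmFit and eBayes (limma 3.58.1 in R 4.3.3), with Benjamini-Hochberg adjustment at 0.05, in 7 comparisons. Replicate numbers and slide positions were the same. Figures used matplotlib 3.10.9. The fit was tested on simulated data, with log2 changes added in MREmx1-cre. Against dflox it called 59 of 100 changes of 0.5 and 80 of 100 changes of 1, with 10 false calls among 22769 genes. A gene that did not pass is thus not shown to be unchanged.

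The genes and lists were chosen with earlier results of these data known. Every gene called against dflox or in the interaction is given by array, at most 4 other synapse genes per list and comparison are named, those with the smallest adjusted p (1 gene that the rule names is not reported here), and Nr3c1 and Nr3c2 are given as the targeted genes. Alternatives were other background correction (normexp with offset 50, on median spot signals in place of mean signals), scaling, filter, probe choice, samples, replicate block and arrays left out. Promoter sequences are RefSeq's.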

Additional observations from a re-analysis of the deposited data

Results flagged for a closer look

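Within the 102 groups of 4 arrays tested for a single array far from the rest (by Dixon's criterion), 2 genes had such an array, where chance gives about 1 in 20 groups. The level of Cplx2 on GREmx1-cre replicate 1 was 6.79, against 6.61 to 6.64 on the other GREmx1-cre arrays. This is also the array with a high mean log2 level of thalamus and habenula markers. The level of Dlg3 on GREmx1-cre replicate 3 was 4.13, against 3.96 to 3.98 on the others. Neither gene was called in any comparison.

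Syp was called in the interaction term, -0.37 ± 0.072 (SE, limma adjusted p = 0.0311). Only dflox lacks Cre, so an effect of Cre itself does not cancel in this term and cannot be told apart from a difference between backgrounds. Loss of MR gave -0.016 where GR was present (4 arrays against 4, overlapping) and -0.39 where GR was absent, where all 3 GRMREmx1-cre arrays were below all 4 GREmx1-cre arrays. With each of the 15 arrays left out in turn the value ranged from -0.40 to -0.34, and the call was lost in 9 of these fits. It was also lost with the replicate block (adjusted p = 0.0513), quantile normalization (0.0534) and median scaling (0.111).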

How the results depend on the processing

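With normexp background correction 20 of the 34 genes were called in GRMREmx1-cre against dflox, 20 against GREmx1-cre and 14 against MREmx1-cre, but 0 in MREmx1-cre against dflox, 0 in MREmx1-cre against GREmx1-cre and 0 in the interaction. Under it the median of all genes in GRMREmx1-cre against dflox went from 0.033 to 0.42 and 14119 of 22872 genes were called there, 105 in MREmx1-cre and 13 in GREmx1-cre; the cause was not tested. It turned Vamp2 (-0.34), Syt2 (1.59) and Shank2 (1.09) in GRMREmx1-cre against MREmx1-cre, and Syt2 (1.48) and Shank2 (1.14) against GREmx1-cre, none called in the main setting. The other synapse genes called against dflox went from 26 to 52.

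In MREmx1-cre against dflox, 10 genes became 4 with median scaling, 6 with no filter on dim probes, 2 with only the groups compared and 4 without GREmx1-cre replicate 1 and MREmx1-cre replicate 2 together (chosen after seeing the data). In MREmx1-cre against GREmx1-cre, 10 became 5 with median scaling and 4 without those arrays. The single call in GRMREmx1-cre against MREmx1-cre was 0 with quantile normalization, median scaling, no filter, only the groups compared, the replicate block and without those arrays. The interaction's call was 0 under the same settings, apart from only the groups compared, which is the main model there. With arrays left out in turn the counts ranged from 3 to 10 (MREmx1-cre against dflox), 8 to 13 (GRMREmx1-cre against dflox and against GREmx1-cre), 7 to 12 (MREmx1-cre against GREmx1-cre), 0 to 1 (GRMREmx1-cre against MREmx1-cre, and interaction) and 17 to 28 (other synapse genes). GREmx1-cre against dflox stayed at 0 throughout. Leaving out together every array apart by the marker check meant GREmx1-cre replicate 1 alone.

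Median scaling turned the split of all called genes to 243 higher and 188 lower in GREmx1-cre (518 and 203 in the main setting), 484 and 535 in MREmx1-cre (962 and 594) and 1546 and 1700 in GRMREmx1-cre (2613 and 1106). With quantile normalization it was 263 and 204 in GREmx1-cre.

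Same-numbered arrays of different groups correlated at -0.029 to 0.20 (21 pairs, median 0.073) and others at -0.15 to 0.11 (63 pairs, median -0.023). All 15 of 15 arrays correlated best with their own number. Same-numbered arrays thus shared some variation, and its source was not tested. The numbers were not taken as pairs, and the main fit holds no term for them. With the replicate block the counts were 7 (MREmx1-cre), 10 (GRMREmx1-cre), 13 (GRMREmx1-cre against GREmx1-cre) and 10 (MREmx1-cre against GREmx1-cre). Dim probes such as Syt2 have the least signal over background.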
